A study of Mus musculus with 9 samples.

Results

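The mRNAs of 10 astrocyte fate transcription factors were described in ribosome-bound RNA of astrocytes: Sox9, Hes5, Dbx2, Nfia, Nfib, Nfix, Sox2, Sox21, Lhx2 and Rfx4. They are 10 of the 22092 genes in the count data, picked by symbol, and each is represented by the transcript with most counts scaled to library total (CPM). They were selected on the values shown here, the levels in endfeet TRAP against whole astrocyte TRAP libraries, so these levels are given as a description, without a p-value for any of the 10. All 10 were lower in every endfeet library than in every whole astrocyte library, as were 3363 of the 14427 genes tested in normalized counts. Nothing is read from this count of 10, since this comparison chose the genes. The amounts were very different. In endfeet TRAP the 3 nuclear factor I (NFI) genes stood at 46.5% to 64.6% of their whole astrocyte level, and the other 7 genes at 2.7% to 15.2%.

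The study asked which mRNAs are bound to ribosomes in perivascular endfeet, the astrocyte processes that wrap brain vessels. Translating ribosome affinity purification (TRAP) pulls down GFP-tagged ribosomes with their mRNAs, which were then sequenced. Every library in both groups came from mice aged 2 months of strain Aldh1L1 JD130, genotype tg:Aldh1L1-L10aGFP, a BAC transgene in which the Aldh1l1 promoter drives the ribosomal protein L10a fused to GFP, so the tag is limited to the cells in which that promoter is active. The 3 whole astrocyte libraries each came from 1 brain, with the choroid plexus taken out, and the 6 endfeet libraries each came from the purified brain vessels of 8 pooled mice, with no treatment in either group.

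Astrocytes are made by radial glia once these progenitors switch from producing neurons to producing glia. SOX9, an HMG-box factor, is needed for that switch and induces NFIA, with which it then turns on astrocyte genes. Notch signaling keeps progenitors undifferentiated through HES5, SOX2 maintains the progenitor state, and LHX2, DBX2 and RFX4 are known from the patterning of the neural tube and forebrain. Several of these factors stay on in adult astrocytes. They act in the nucleus, which lies in the soma, far from the endfoot.

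Counts over all genes totalled 35984144 to 43521208 for the whole astrocyte group and 2319495 to 13450588 for the endfeet group, where library 6 was the shallowest. A floor of 3 counts corresponded to at most 0.0834 CPM in the former and to 0.223 to 1.29 CPM in the latter, for counting error only. Astrocyte mRNAs were present in both groups, with a summed 54254 to 56780.1 CPM of 25 cytoplasmic and membrane mRNAs in whole astrocytes and 19383 to 43869.8 CPM in endfeet. Vessel cell mRNAs were high in endfeet TRAP, since all 8 endothelial markers (4.87 to 7.49 CPM summed in whole astrocytes, 2532 to 5144 CPM in endfeet) and all 8 mural markers (40.2 to 47.6 and 3315 to 8316 CPM) were higher there by edgeR's quasi-likelihood F test (Benjamini-Hochberg adjusted). In whole astrocytes the endothelial marker Ly6c1 was at 0 in every library. Summed choroid plexus markers reached 72.6 to 1602 CPM in whole astrocytes and 6758 to 73343 CPM in endfeet, with 5 of 6 higher, and microglia and macrophage markers 17.9 to 21.7 and 204 to 328 CPM, with 6 of 8 higher. All 7 fibroblast markers and 5 of 7 ependymal markers were higher too. Of 7 oligodendrocyte lineage markers 1 was higher and 1 lower, and of 8 neuron markers 1 was higher and 2 lower. The part of these cells in the results below, those of the NFI genes included, was not tested. In such bulk libraries, fewer astrocyte ribosomes and fewer copies of an mRNA per astrocyte ribosome cannot be told apart, nor can fewer cells of a type and less RNA per cell.

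**Figure D1:**
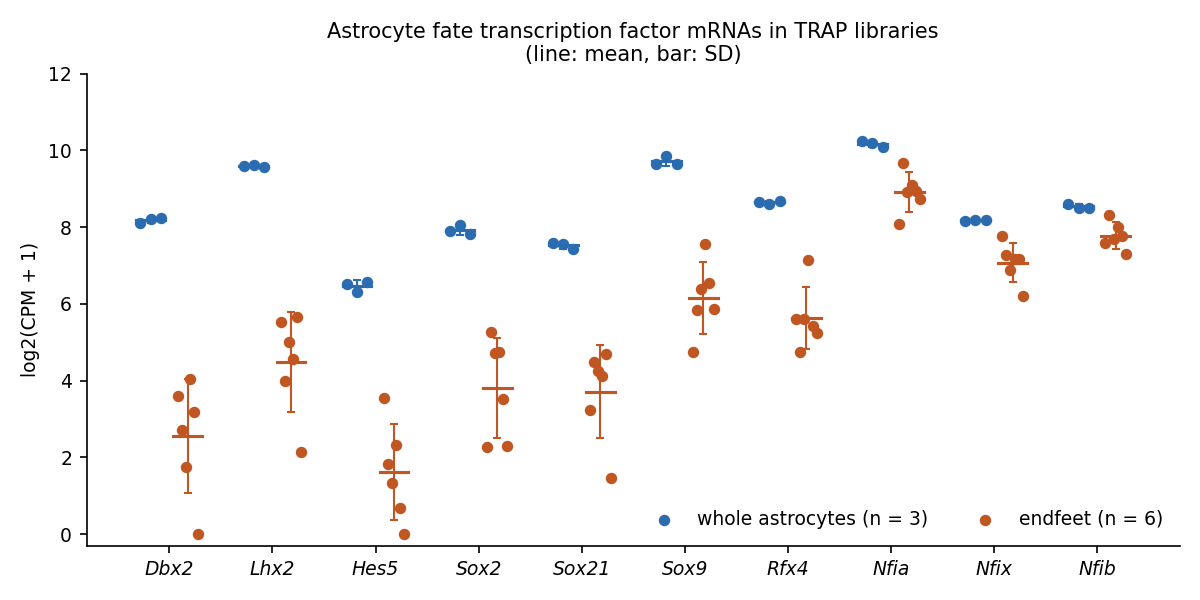
Level of each of the 10 genes as log2(CPM + 1) in the 3 whole astrocyte libraries (blue) and the 6 endfeet libraries (orange), ordered by fold change, with the mean (line) and SD (bar). For each gene the orange points all lie under the blue ones, by a wide gap on the left and a narrow one for Nfia, Nfix and Nfib on the right.

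Among the SOX factors, Sox9 (mm10, chromosome 11, 112782224 to 112787760, plus strand, 3 exons) stood at 798, 799.8 and 929 CPM in whole astrocytes and at 25.8 to 186 CPM in endfeet, with a median of 69.8 CPM. Its highest endfeet library, number 4, reached 24.5% of the lowest whole astrocyte library in normalized counts, so the groups were far apart. Normalized counts averaged 10285 ± 885 (SD, n = 3) against 1066 ± 686 (SD, n = 6), a log2 fold change of -3.27 ± 0.424 (SE), or 9.66-fold lower in endfeet.

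Sox2, a single-exon gene that keeps neural progenitors in their state (chromosome 3, 34650405 to 34652461, plus strand), measured 224, 238 and 265 CPM in whole astrocytes. In endfeet it fell between 3.84 and 37.6 CPM, with a median of 18 CPM, and libraries 1 and 6 were the low ones, at 25 and 9 counts. The fitted difference was -3.71 ± 0.571 log2 (SE), or 13.1-fold lower. Sox21, its close relative with a single exon (chromosome 14, 118233232 to 118237030, minus strand), had 171, 188 and 192 CPM in whole astrocytes and 1.72 to 24.9 CPM in endfeet, with a median of 17.2 CPM. Library 6, with 4 counts, was the low one. Sox21 was 11.5-fold lower in endfeet, a log2 fold change of -3.52 ± 0.509 (SE).

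The SOX genes share the coding sequence of the DNA-binding HMG box, and reads of 50 bases could in principle be shared too. The most alike stretch of 90 coding bases within an exon is shown to let the 3 genes be compared, read from GENCODE M21 transcripts on mm10 and written 5′ to 3′ on the coding strand. Capitals mark bases that differ from Sox2. All 3 stretches lie in exon 1, at chr3:34650551-34650640 (plus strand) for Sox2, chr14:118235516-118235605 (minus strand) for Sox21 and chr11:112782906-112782995 (plus strand) for Sox9.
Sox2: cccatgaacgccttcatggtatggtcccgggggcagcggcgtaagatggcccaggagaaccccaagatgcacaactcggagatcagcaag
Sox21: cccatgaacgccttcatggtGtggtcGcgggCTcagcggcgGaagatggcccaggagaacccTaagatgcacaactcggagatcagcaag
Sox9: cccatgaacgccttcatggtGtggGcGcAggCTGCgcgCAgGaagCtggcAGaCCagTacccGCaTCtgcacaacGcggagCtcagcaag
Sox21 differed from Sox2 at 6 of the 90 bases and Sox9 at 23. The longest run of identical bases between any pair of these transcripts was 38, between Sox2 and Sox21, so no exact 50-base read could come from both.

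Hes5, the Notch effector (chromosome 4, 154960923 to 154962371, plus strand, 3 exons), measured 77.8, 91.6 and 94.7 CPM in whole astrocytes. Endfeet libraries held 70, 22, 20, 51, 8 and 0 counts, which is 0 to 10.7 CPM with a median of 2.02 CPM. The count of 0 was in library 6, where it allows up to 1.29 CPM. Hes5 was 23.3-fold lower in endfeet by the fit, a log2 fold change of -4.54 ± 0.886 (SE), the widest error of the 10.

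The 250 bases upstream of the Hes5 start site are shown because Notch acts on this gene through its promoter, followed by those of Sox21 and Nfix, the other members whose RefSeq start lies within 14 bases of the transcript counted here. They come from RefSeq on GRCm38.p6, the assembly named mm10 elsewhere, and are written 5′ to 3′ on the strand of the gene. They cover chr4:154960673-154960922 (plus), chr14:118237031-118237280 (minus) and chr8:84773411-84773660 (minus). Capitals mark matches, on either strand, to the short motifs TGGGAA (RBPJ, the factor of Notch signaling), TTGGCA (NFI half-site), ACAATG (SOX), CACNAG (HES N-box), TAATTA (LIM homeobox) or GTTGCC (RFX half-site).
Hes5: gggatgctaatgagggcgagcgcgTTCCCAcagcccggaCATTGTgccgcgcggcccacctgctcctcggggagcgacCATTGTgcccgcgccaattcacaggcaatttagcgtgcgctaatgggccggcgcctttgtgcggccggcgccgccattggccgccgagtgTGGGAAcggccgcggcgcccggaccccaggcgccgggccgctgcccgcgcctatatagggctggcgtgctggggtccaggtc
Sox21: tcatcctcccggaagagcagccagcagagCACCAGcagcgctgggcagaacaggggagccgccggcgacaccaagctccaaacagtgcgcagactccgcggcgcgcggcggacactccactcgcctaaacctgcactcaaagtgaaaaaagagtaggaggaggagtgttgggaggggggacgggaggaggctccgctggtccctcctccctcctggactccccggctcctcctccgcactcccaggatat
Nfix: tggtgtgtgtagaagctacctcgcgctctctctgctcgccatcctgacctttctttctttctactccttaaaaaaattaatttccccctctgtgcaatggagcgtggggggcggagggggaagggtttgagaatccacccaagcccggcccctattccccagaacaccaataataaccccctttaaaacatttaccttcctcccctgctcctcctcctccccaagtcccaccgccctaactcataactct
The Hes5 stretch held the RBPJ letters at positions -226 to -221 and -82 to -77 from the start site, and the SOX letters at -211 to -206 and -172 to -167, with no overlap between them. Sox21 held a single N-box match, at -221 to -216, and the Nfix stretch shown held none of the 6 motifs. RefSeq lists 3 further Nfix start sites, whose upstream stretches, beginning at 84780083, 84775829 and 84772876 on chromosome 8, held in that order an N-box and a LIM homeobox match, a SOX match and an N-box match. Among 32851 RefSeq promoters of the same length, 21.6% held the RBPJ letters, 12.3% the NFI half-site, 10.7% the SOX motif, 36.7% the N-box, 4.84% the LIM homeobox motif and 10.4% the RFX half-site. RefSeq promoters were matched for 8 of the 10 genes, all but Sox9 and Nfib.

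Lhx2, a LIM homeodomain factor of the developing cortex (chromosome 2, 38350759 to 38369733, plus strand, 5 exons), had 753, 771 and 778 CPM in whole astrocytes. Its endfeet values ran from 3.45 CPM, in library 6, to 49.6 CPM, in library 5, with a median of 26.8 CPM. In normalized counts the highest endfeet library was number 1, at 7.9% of the lowest whole astrocyte library. The log2 fold change was -4.66 ± 0.548 (SE), or 25.4-fold lower.

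Dbx2, a homeodomain factor of the ventral neural tube (chromosome 15, 95623563 to 95655960, minus strand, 4 exons), had the largest difference of the 10. Whole astrocytes held 276, 295 and 302 CPM, and endfeet held 73, 48, 31, 197, 109 and 0 counts, or 0 to 15.5 CPM with a median of 6.83 CPM. As for Hes5, the 0 was in library 6 and allows up to 1.29 CPM. Dbx2 was 36.2-fold lower by the fit, with a log2 fold change of -5.18 ± 0.708 (SE), and its highest endfeet library came to 5.79% of its lowest whole astrocyte library.

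Rfx4, a winged-helix factor needed for forebrain midline patterning (chromosome 10, 84834746 to 84906534, plus strand, 15 exons), had 389.9, 401 and 408 CPM in whole astrocytes and 25.8 to 139.9 CPM in endfeet, with a median of 44.8 CPM. Library 4 held the highest value, well above the other 5 endfeet libraries, which ended at 47.9 CPM. Even so, library 4 reached only 37.6% of the lowest whole astrocyte library in normalized counts. The log2 fold change was -2.72 ± 0.435 (SE), or 6.58-fold lower, the smallest difference outside the NFI genes.

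The NFI genes encode DNA-binding proteins that drive gliogenesis and astrocyte maturation, and their endfeet levels lay closer to those of whole astrocytes. Nfia (chromosome 4, 97777608 to 98118871, plus strand, 11 exons) stood at 1091, 1163 and 1202 CPM in whole astrocytes and at 271 to 818 CPM in endfeet, with a median of 485 CPM. Normalized counts averaged 14076 ± 861 (SD, n = 3) against 6542 ± 2076 (SD, n = 6), a log2 fold change of -1.12 ± 0.27 (SE), or 2.17-fold lower, which turned to 0.24 when the libraries were scaled on the astrocyte mRNAs described below.

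Nfib (chromosome 4, 82290173 to 82505308, minus strand, 12 exons) measured 358, 363 and 389 CPM in whole astrocytes and 155 to 316 CPM in endfeet, with a median of 210 CPM. Its highest endfeet library came to 92.4% of its lowest whole astrocyte library, so the groups were separate by a small margin. The log2 fold change was -0.64 ± 0.25 (SE) and 0.64 under the astrocyte mRNA scaling. Nfix (chromosome 8, 84704712 to 84773396, minus strand, 11 exons) measured 288, 290.2 and 292 CPM against 72.4 to 217 CPM, with a median of 142 CPM. Here the margin was smaller still, at 98.6%. The Nfix log2 fold change was -0.92 ± 0.33 (SE) and 0.23 under the astrocyte mRNA scaling.

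The 3 NFI genes have nearly the same DNA-binding domain, so their most alike stretch of 90 coding bases within an exon is shown in the same way, with capitals at bases that differ from Nfia. The stretches lie in exon 2 of each gene, at chr4:97783109-97783198 (plus strand), chr4:82498653-82498742 (minus strand) and chr8:84772199-84772288 (minus strand).
Nfia: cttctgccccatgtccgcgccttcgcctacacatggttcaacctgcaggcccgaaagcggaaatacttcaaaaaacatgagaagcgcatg
Nfib: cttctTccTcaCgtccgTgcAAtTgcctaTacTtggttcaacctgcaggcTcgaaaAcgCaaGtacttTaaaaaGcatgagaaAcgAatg
Nfix: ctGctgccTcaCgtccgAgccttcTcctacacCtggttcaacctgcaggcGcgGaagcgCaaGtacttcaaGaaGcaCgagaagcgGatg
Nfib differed from Nfia at 17 of these bases and Nfix at 14. The longest identical run between the whole transcripts was 21 bases, and no 50-base stretch of the Nfia or Nfib transcript occurred in another GENCODE gene. Shared stretches were found where an antisense gene lies over an exon, in 1.7% of the Nfix transcript (G430095P16Rik), 17.8% of the Sox21 transcript (Gm4675) and 23.7% of the Hes5 transcript (Gm20421). Whether the counting used strand is not given in the sources used here, so reads from these parts cannot be told apart. Over the Nfia locus the opposite-strand gene E130114P18Rik, with 11773 counts summed over whole astrocytes and 85 over endfeet, shared no such stretch with the Nfia transcript. Over Nfix, G430095P16Rik held 2736 counts in whole astrocytes and 844 in endfeet, beside 33518 and 8163 of the Nfix transcript itself. Lyl1, also opposite to Nfix, held 70 and 349 and shared no such stretch.

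By the all-gene fit, 9 of the 10 members were past the adjusted p threshold of 0.05 in the lower direction and 0 in the higher, with Nfib the exception. Over all 14427 genes tested, 13.9% were called lower and 20.7% higher, and nothing is read from the members' count, since this comparison chose them. With only series B (endfeet libraries 4, 5 and 6 and all whole astrocytes, a series defined by the numbers the libraries carry, whose meaning is not stated) the count was 10 of 10, and the other series holds no whole astrocyte library. Without endfeet library 6 it was 9 of 10.

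Summed astrocyte mRNAs were themselves lower in endfeet TRAP, so the libraries were also scaled on the 25 astrocyte cytoplasmic and membrane mRNAs in place of TMM. The scale of each library was the geometric mean of their counts plus 1. This scaling moved the median log2 fold change of all genes from 0.10 to 1.40. Under it the 7 members outside the NFI family still had negative log2 fold changes, from -1.55 for Rfx4 to -4.21 for Dbx2, while Nfia, Nfib and Nfix changed sign. Another form of this scaling was log2(CPM + 1) in each library minus the mean over the same 25 mRNAs. This measure is not independent of the scaling above. By it Nfib was 0.53 and Nfix 0.18 log2 units higher in endfeet and Nfia 0.03 higher, while the difference was -1.73 for Rfx4 and -4.35 for Dbx2. On this measure the 2 groups overlapped for each NFI gene, as for Nfia at 0.05 to 2.46 in endfeet and 1.1 to 1.36 in whole astrocytes. These differences come from the contrast that selected the genes and carry no test.

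**Figure D2:**
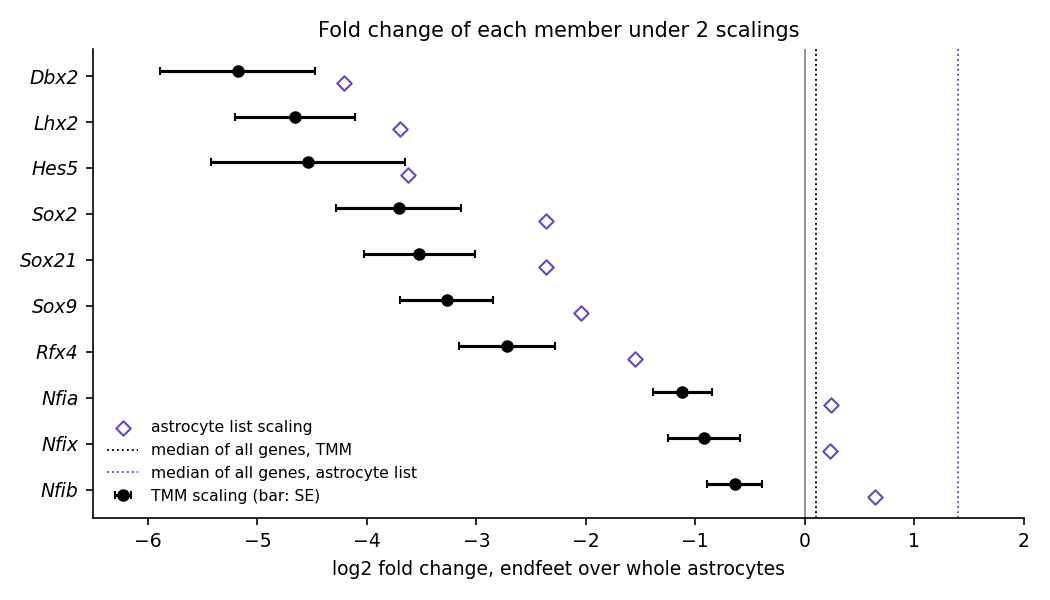
Log2 fold change of each gene, endfeet over whole astrocytes, with TMM scaling (black points, bar SE) and with scaling on 25 astrocyte mRNAs (open diamonds); dotted lines mark the median of all genes under each, 0.10 and 1.40. The 7 upper genes stay below 0 under both scalings, while Nfia, Nfix and Nfib lie below 0 with TMM and above 0 with the astrocyte mRNAs.

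Levels of different genes were compared as CPM per kilobase of transcript. In whole astrocytes the order was Lhx2 (270.2 ± 4.51, SD, n = 3), Sox9 (204 ± 18.1), Nfia (121 ± 5.9), Rfx4 (119.9 ± 2.74), Sox2 (118 ± 10.1), Dbx2 (84.1 ± 3.89), Hes5 (69.1 ± 7.04), Nfix (53.0 ± 0.344), Sox21 (48.4 ± 2.93) and Nfib (42.2 ± 1.9). Nfia, Rfx4 and Sox2 overlapped in range, and all other neighbours in this order were separate in all 3 libraries.

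In endfeet the order of the mean CPM per kilobase was another one, led by Nfia (53.0), Nfix (25.7) and Nfib (25.4), then Sox9 (20.1), Rfx4 (17.0), Lhx2 (9.77), Sox2 (8.68), Sox21 (3.99), Hes5 (2.54) and Dbx2 (2.06). Every pair of neighbours here overlapped in range. Nfia was the highest member in 5 of 6 endfeet libraries, with Nfix above it in library 1. Lhx2, the highest member in all 3 whole astrocyte libraries, ranked between 4 and 8 in the endfeet libraries.

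The NFI genes thus made up 18.7% to 19.8% of the members' summed CPM per kilobase in whole astrocytes and 48.5% to 73.5% in endfeet. The sum over the other 7 was 897 to 940.3 CPM per kilobase in whole astrocytes and 28.3 to 119 in endfeet. The NFI sum was 209 to 223 against 75 to 149.7. Neither pair of ranges could overlap, since each member was lower in every endfeet library, and nothing is read from this.

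**Figure D3:**
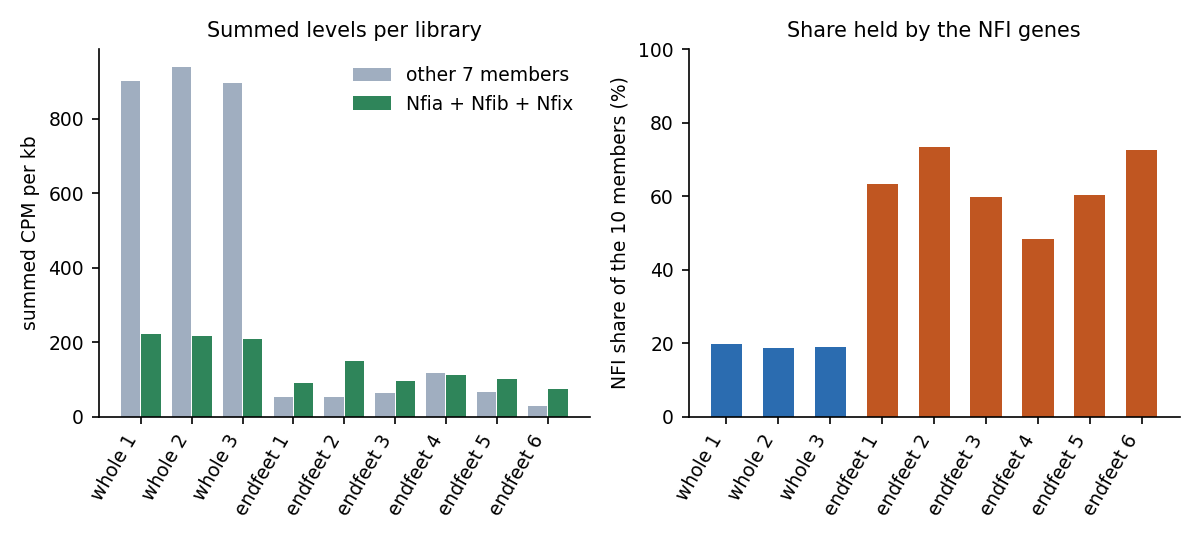
Left, summed CPM per kilobase of the NFI genes (green) and of the other 7 members (grey) in each library; right, the NFI share of the sum of all 10 in percent, blue for whole astrocytes and orange for endfeet. The share lies between 18.7% and 19.8% in whole astrocytes and between 48.5% and 73.5% in endfeet, where the grey bars are low throughout.

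Endfeet libraries differed among themselves far more than whole astrocyte libraries did. The coefficient of variation of normalized counts was 0.696% (Nfix) to 10.3% (Hes5) over whole astrocytes. Over endfeet it was 22.9% for Nfib, 31.7% for Nfia and 44.9% for Nfix, and 53.6% (Sox21) to 137% (Hes5) for the others. Between the lowest and highest endfeet library, normalized counts differed 1.8-fold for Nfib and 14.5-fold for Lhx2. No such ratio exists for Hes5 and Dbx2, with 0 counts in library 6.

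The extremes in CPM did not fall on a single library. Library 6, the shallowest, was the lowest for 6 members, library 1 for 3 and library 2 for 1. The highest value was in library 2 or 4 for 3 members each and in library 1 or 5 for 2 each. Sox9 averaged 5.65 log2(CPM + 1) in endfeet libraries 1 to 3 and 6.65 in libraries 4 to 6, while Hes5 averaged 2.23 and 1.0. Summed choroid plexus markers were 29867 to 73343 CPM in the former and 6758 to 17416 CPM in the latter, and their part in these differences was not tested.

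Transcripts of a gene share reads, so their counts can only be set against that of the chosen transcript. For Lhx2, the transcript ENSMUST00000143783, which starts upstream at 38339281, held 38.3% of the chosen transcript's count when whole astrocytes were pooled and 28.2% when endfeet were pooled, with a range of 0 to 54.3% over endfeet libraries. For Rfx4, ENSMUST00000060397, which starts at 84756062, held 81.4% and 69.0%, with 57.5% to 93.3% over endfeet libraries. Both endfeet ranges spanned the whole astrocyte values, and whether transcript use differed between the groups was not tested.

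The relatives of the members were measured next, as 34 further genes of the SOX, NFI, HES, DBX, LHX and RFX families, of which 23 passed the filter on low counts. Of these, 5 were lower in endfeet, 3 were higher and 15 did not pass edgeR's quasi-likelihood F test (Benjamini-Hochberg adjusted), with a median log2 fold change of -0.57 beside 0.10 over all genes. The 13.9% and 20.7% called over all genes stand beside these counts, from which nothing particular to the families is read. The lower count was 3 without whole astrocyte library 1, 10 of 25 in series B alone, 11 with limma voom and 9 of 32 without the filter, and under the astrocyte mRNA scaling 2 were lower and 6 higher.

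Nfic, the remaining NFI gene, was at 175 to 186 CPM in whole astrocytes and 91.6 to 294 CPM in endfeet. These ranges overlapped, and the log2 fold change was 0.04 ± 0.346 (SE, edgeR adjusted p = 0.934), or 1.36 and past the threshold under the astrocyte mRNA scaling. In series B alone it was -0.69, past the threshold in the other direction. Of the CPM per kilobase of the 4 NFI genes, Nfia held 48.4% to 49.9% in whole astrocytes and 24.1% to 48.1% in endfeet, and Nfic held 11.6% to 11.8% and 11.5% to 28.6%.

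SOX relatives went both ways. Sox8, a SOX9 relative of the glial lineages, was at 195 to 217 CPM in whole astrocytes and 0.862 to 13.7 CPM in endfeet, which is -4.86 ± 0.616 in log2 (SE, edgeR adjusted p = 5.92e-05). Sox1, a neural progenitor factor close to Sox2, was also lower (-3.17 ± 0.697, edgeR adjusted p = 0.00344), and so were Sox6 (-2.16) and Sox5 (-1.39), which passed the test with TMM but not under the astrocyte mRNA scaling (-0.91 and -0.11). The Sox5 call was also lost without whole astrocyte library 1 (-1.27). The endothelial factors Sox17 and Sox18 were higher, with 0.0832 to 0.222 and 0.528 to 0.805 CPM in whole astrocytes and 18.6 to 163 and 43.4 to 142 CPM in endfeet. Sox13 had a log2 fold change of 1.91 ± 0.602 (edgeR adjusted p = 0.026) and passed in the all-library fit, but not without whole astrocyte library 1, 2 or 3 (1.93, 1.94 and 1.86) nor in series B alone (0.51).

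Sox4 (-1.03), Sox12 (-0.57) and Sox7 (0.95) did not pass. Among HES genes, Hes1, another Notch effector, was at 40.9 to 49.2 CPM in whole astrocytes and 2.59 to 20.9 CPM in endfeet (log2 fold change -1.73 ± 0.602, edgeR adjusted p = 0.0409, and -0.52, not past the threshold, under the astrocyte mRNA scaling). The Hes1 call was lost in series B alone (-1.73), without whole astrocyte library 1, 2 or 3 (-1.60, -1.78 and -1.79) and without endfeet library 2 or 3 (-1.77 and -1.73). Hes6 (-1.09) did not pass with all libraries, but it did without endfeet library 1 (-2.16), as did Sox7 (1.19). None of the RFX relatives above 100 normalized counts in whole astrocytes passed in the all-library fit, with log2 fold changes of -0.87 for Rfx3, -0.40 for Rfx5, -0.30 for Rfx2 and 0.67 for Rfx7. Rfx3, Rfx5 and Rfx2 were above 0 under the astrocyte mRNA scaling, and Rfx7 passed there at 2.11. Without endfeet library 4 Rfx3 passed, at -1.25.

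A list of 40 other glial and neural progenitor transcription factors had 28 lower in endfeet, 3 higher and 9 that did not pass. The median log2 fold change was -2.54, and under the astrocyte mRNA scaling 11 were lower and 5 higher. The shares called over all genes with TMM, 13.9% lower and 20.7% higher, stand beside these counts and those of the lists that follow. Nr2e1, the neural stem cell factor TLX, was at 256 to 287 CPM in whole astrocytes and 0.431 to 17.5 CPM in endfeet, which is -4.84 ± 0.629 in log2 (SE, edgeR adjusted p = 7.23e-05). Olig2, the oligodendrocyte lineage factor, was at 54.3 to 63.6 and 0.154 to 6.82 CPM (-4.31 ± 0.79, edgeR adjusted p = 0.000995), and Etv4, a target of FGF signaling, at 10.8 to 11.7 and 0 to 0.631 CPM.

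The 3 that were higher were Zbtb20, Zic1 and Gli1. Zbtb20, a zinc finger factor of hippocampal development and astrogenesis, was at 1115 to 1267 CPM in whole astrocytes and 1840.2 to 4130.3 CPM in endfeet, with all 6 endfeet libraries above all whole astrocyte ones (log2 fold change 1.27 ± 0.298, edgeR adjusted p = 0.00505). Zic1 (1.27 ± 0.446, adjusted p = 0.0423) and Gli1, the hedgehog target (2.78 ± 0.968, adjusted p = 0.0409), were nearer to the threshold in edgeR. Neither passed when whole astrocyte library 1, 2 or 3 was left out, which brought the count that were higher from 3 to 1. The Gli1 call was also lost without endfeet library 6 (1.48), and the Zic1 call without endfeet library 2, 4 or 5 (1.16, 1.03 and 1.07).

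Of 19 genes listed as inputs to gliogenesis, 1 was lower in endfeet, 7 were higher and 11 did not pass. The median log2 fold change was 0.82, and 12 were higher under the astrocyte mRNA scaling. The list held Notch, BMP and JAK-STAT pathway genes and the growth factor receptors Fgfr3 and Egfr, with Egfr among those higher. Fgfr3 is also among the 25 astrocyte mRNAs. Jag1, a Notch ligand, was at 0.888 to 1.53 CPM in whole astrocytes and 55.0 to 139 CPM in endfeet (6.46 ± 0.54, edgeR adjusted p = 2.01e-06). The receptor Notch2 was higher as well (3.79 ± 0.352, edgeR adjusted p = 4.57e-06), as was the cytokine co-receptor Il6st (4.20 ± 0.299, edgeR adjusted p = 5.42e-07). Nrarp, a Notch target that dampens the pathway, was the lower gene, at 282 to 307 CPM against 18.7 to 46.4 CPM (-2.94 ± 0.353, edgeR adjusted p = 3.86e-05). Jag1 and Notch2 are also made by vessel cells, whose markers were high in the same libraries, and their part was not tested.

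Among 10 genes reported as SOX9 or NFIA targets or markers of that program, 5 were lower in endfeet, 2 were higher and 3 did not pass (median log2 fold change -0.98). Under the astrocyte mRNA scaling 4 were lower and 4 higher. S100b, a calcium-binding protein of astrocytes, was at 2005 to 2086 CPM in whole astrocytes and 62.5 to 317 CPM in endfeet (-3.59 ± 0.405, edgeR adjusted p = 2.42e-05). Fabp7 (-2.56) and Zcchc24 (-2.47) were lower too. The higher genes were Sparcl1, a secreted matrix protein (1.79 ± 0.351, edgeR adjusted p = 0.00163), and Apcdd1, a membrane Wnt inhibitor also made by brain endothelium (6.47 ± 0.478, edgeR adjusted p = 7.07e-07).

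For the 25 astrocyte cytoplasmic and membrane mRNAs themselves, 12 were lower with TMM, 2 were higher and 11 did not pass, with a median log2 fold change of -0.85. Scaled on their own mean, 7 were lower and 10 higher. The count of higher genes was 1 without whole astrocyte library 1, 2 or 3 or endfeet library 4 or 5, and 4 without endfeet library 2. The lowest was Aldoc, a glycolytic enzyme (-4.0 ± 0.353, edgeR adjusted p = 3.1e-06), and the median was Fgfr3, a growth factor receptor (-0.85 ± 0.459, edgeR adjusted p = 0.17, and 0.18 under their own scaling). The values of Nfia, Nfib and Nfix fell near the middle of this list, and those of the other members lay toward its low end or below it. Of 28 vascular transcription factors 27 were tested, of which 22 were higher, 1 was lower (Hey1, -1.76 ± 0.44, edgeR adjusted p = 0.00777, and -0.41, not past the threshold, under the astrocyte mRNA scaling) and 4 did not pass.

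**Figure D4:**
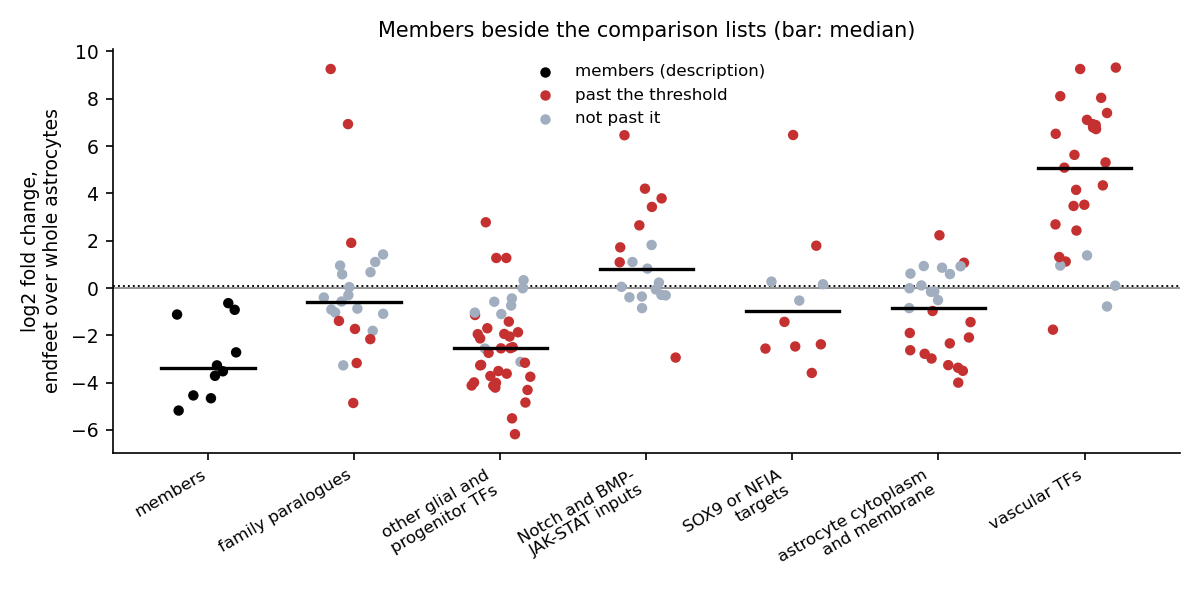
Log2 fold change, endfeet over whole astrocytes with TMM scaling, of each gene in 7 lists, with the median of each list (bar) and of all genes (dotted line, 0.10); red points passed edgeR's test and grey points did not, and the members (black) carry no test. Members have a median of -3.40 and the other glial factors of -2.54, the vascular factors one of 5.09, and the 3 members nearest 0 (Nfia, Nfix and Nfib) are above 0 under the astrocyte mRNA scaling.

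By correlation of log2(CPM + 1) with the mean of the members over the 9 libraries, the 5 most alike of 9616 other genes were Hsdl2 (r = 0.995), Dynlt3 (0.989), Ptms (0.988), Gabarapl1 (0.986) and Hpcal4 (0.985). The 9 points fall into 2 groups and share their libraries and depths, so these values rank genes and carry no test. Hsdl2, a peroxisomal protein, was at 357 to 398 CPM in whole astrocytes and 16.8 to 61.5 CPM in endfeet.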

How the data were processed

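RNA bound to GFP-tagged ribosomes was sequenced in 3 whole astrocyte TRAP and 6 endfeet TRAP libraries, grouped by their labels. The authors deposited unnormalized counts for each Ensembl 75 transcript of each library. By their methods, 50-base reads were filtered (mean quality of 30, reads of 40 bases or less removed), aligned to mm10 with Bowtie, cleared of multiple alignments and counted with HTSeq 0.5.3. Reads shared by close copies are therefore missing from both genes. The kit amplified cDNA from 10 ng of RNA.

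The 75466 transcripts were matched to GENCODE M21, which held 73164 of them in 22092 genes. The 2302 others were left out. Reads recur in the counts of several transcripts of a gene, so only the transcript with the highest CPM summed over libraries was used. For this choice CPM was scaled to the library's total over all transcripts, and all CPM reported here to its gene total. Normalized counts used DESeq2 1.42.0 size factors. The groups were compared with edgeR 4.0.16 (TMM, filterByExpr, glmQLFTest) in R 4.3.3 over 14427 genes with Benjamini-Hochberg adjustment at 0.05. SE is the absolute log2 fold change over the root of F. The p-values measure the spread between libraries of 1 brain and pools of 8 mice. Whole astrocyte libraries are all of series B. The script was tested on simulated data.

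The members and lists were chosen with earlier results of these data known. Genes named besides the members are relatives past the threshold or above 100 normalized counts in whole astrocytes, the 3 largest changes in each direction of each other list among called genes above 100 in a group, the highest, median and lowest astrocyte mRNA, and the 5 most alike genes. A result covered by this rule is not reported here. Alternatives were another test (DESeq2, limma 3.58.1 voom), scaling, filter, transcript sum, series, replicate block, thinning and leaving out each library. Replicate numbers did not pair the libraries (correlation of deviations -0.036, 0.017 and 0.032). Columns of other samples numbered 0.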

Additional observations from a re-analysis of the deposited data

Results flagged for a closer look

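Rfx4 in endfeet library 4, at 7.14 log2(CPM + 1), stood apart from the other 5 endfeet libraries: its gap to the nearest of them was 0.638 of the group's range, above the critical value of Dixon's test for 6 values, 0.625. Chance alone marks about 1 in 20 groups, and 10 groups were tested, of which this was the 1 marked. The cause was not tested.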

How the results depend on the processing

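The members were selected on this contrast, so their values under the alternatives are a description. Log2 fold changes of the 7 outside the NFI family ran from -2.04 to -4.02 for Sox9, -3.62 to -5.64 for Hes5, -4.21 to -5.89 for Dbx2, -2.36 to -4.16 for Sox2, -2.36 to -3.84 for Sox21, -3.70 to -5.00 for Lhx2 and -1.55 to -3.34 for Rfx4. Scaling on the astrocyte mRNAs turned Nfia to 0.24, Nfib to 0.64 and Nfix to 0.23, by its construction. Members called lower numbered 5, all of the 5 still tested, when 10 counts were asked of every library. The replicate block fit used only libraries 1 to 3 of each group and called 8 of 10 members lower, beside 9 of 10 in the fit of all libraries. Its whole astrocyte libraries are all of series B and its endfeet libraries all of the other series, so group and series cannot be told apart in it. Numbers 1 to 3 do not pair the libraries, and 8 to 10 members were called lower without each library in turn.

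Over all genes, 2006 were lower and 2991 higher. The astrocyte mRNA scaling gave 344 and 5116, and limma voom gave 4485 lower. Without each library in turn 1171 to 2642 were lower and 1874 to 3380 higher, with the lowest counts without a whole astrocyte library (1171, 1197 and 1217 lower, 1959, 1874 and 1943 higher). The cause of these lower counts was not tested. Hes5 and Dbx2 had 0 counts in endfeet library 6, the shallowest, which allows up to 1.29 CPM. The part of depth in these values was not tested.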
